A study of Mus musculus with 12 samples.

Results

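N6-methyladenosine (m6A), a methyl group on adenosines inside messenger RNA, is placed, removed and read by a small set of proteins, and the transcripts of 10 of them were followed here in the epithelium of the mouse small intestine after experimental stroke. The 10 genes were the rows of the deposited table that carried the symbols Zc3h13, Wtap, Mettl3, Mettl14, Rbm15, Cbll1, Fto, Alkbh5, Ythdf2 and Ythdc1, out of 15855 genes in all. All 10 were found, and all 10 were among the 14462 genes that passed the filter on low counts. Zc3h13 was chosen by its measured difference between stroke and sham mice in these same libraries, so its difference is described without a test. The other 9 were picked for their role in m6A.

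RNA was sequenced from EpCAM+ epithelial cells sorted from the whole small intestine of C57BL6/J mice 24 h after surgery. Libraries of 7 sham-operated mice and 5 mice with permanent middle cerebral artery occlusion (pMCAO) were used here. The paper gives a larger number of pMCAO mice for this sequencing. In pMCAO a filament closes a main artery of the brain and is left in place, which models a stroke without reperfusion, and sham mice had the operation without the occlusion. By the study's methods the animals were young adult males of wild-type genotype. The comparison asked how stroke changes the transcripts of the gut epithelium. Total counts ran from 7418730 to 31925579 per library, and mitochondrial ribosomal RNA took between 14.6% and 54.5% of them. The sorted identity was checked with markers. All 7 epithelial markers were present, at 5213 to 11079 CPM (counts scaled to a common library size) summed in sham and 5359 to 12189 CPM in pMCAO mice, and the 9 immune markers summed to 44.4 to 247 and 50.01 to 153 CPM. Of 9 stromal and vascular markers only Pecam1 was in the table, and of 7 enteric neural markers only Ret. In sorted bulk RNA, fewer cells of a type and less RNA per cell cannot be told apart.

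The methylation is made by a complex whose core is METTL3, the catalytic subunit, bound to METTL14, which holds the RNA. WTAP anchors this core to a larger regulatory part that includes VIRMA, RBM15, CBLL1 (HAKAI) and ZC3H13, a CCCH zinc finger protein that links WTAP to the RNA-binding adaptor RBM15 and keeps the complex in the nucleus. FTO and ALKBH5 remove the methyl group. YTHDC1 reads the mark in the nucleus, and YTHDF2 reads it in the cytoplasm and brings in the CCR4-NOT deadenylase to shorten the life of the transcript. In the intestine the writer complex is known for its part in maintaining stem cells and their progeny.

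Zc3h13 (ENSMUSG00000022000) spans bases 75284373 to 75344426 of chromosome 14 (plus strand, GRCm38), and no exon of another gene overlaps it. Mettl3 (ENSMUSG00000022160) is on the same chromosome, on the minus strand, from 52294841 to 52305128. The 250 bases upstream of the start of each, from RefSeq on GRCm38.p6, are shown because the results turn on Zc3h13 and because Mettl3 encodes the enzyme it serves. They span chr14:75284116-75284365 on the plus strand and chr14:52305125-52305374 on the minus strand. Capitals mark matches, on either strand, to the ETS core CCGGAA and to the GC box GGGCGG.
Zc3h13: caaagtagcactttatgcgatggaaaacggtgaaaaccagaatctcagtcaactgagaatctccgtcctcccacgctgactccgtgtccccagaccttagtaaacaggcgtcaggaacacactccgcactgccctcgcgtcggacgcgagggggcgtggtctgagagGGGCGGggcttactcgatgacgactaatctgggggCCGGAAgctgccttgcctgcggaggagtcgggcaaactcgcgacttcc
Mettl3: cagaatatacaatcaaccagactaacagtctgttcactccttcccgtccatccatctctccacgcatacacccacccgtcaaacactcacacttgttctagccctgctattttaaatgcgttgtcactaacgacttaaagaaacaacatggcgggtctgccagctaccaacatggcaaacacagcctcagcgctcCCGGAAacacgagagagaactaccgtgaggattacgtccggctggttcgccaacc
The Zc3h13 window was 59.2% G or C with 21 CpG dinucleotides, and that of Mettl3 was 50.4% with 13. Each held 1 CCGGAA, and only the Zc3h13 window of the pair held GGGCGG. Of the 27025 mouse promoters of this length, 12.2% held CCGGAA and 32.9% held GGGCGG. Promoters were found for 9 members, all but Mettl14. CCGGAA was in 3 of them (Mettl3, Wtap and Zc3h13), GGGCGG in 6, CCAAT in 3 against 34.5% of all promoters, and TATAAA in 0 against 13.0%. None of these motifs contains another.

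Zc3h13 was lower in pMCAO than in sham mice in every block of libraries in which both groups were present. The libraries were put in 4 blocks by their number, with limits taken from an earlier analysis of these data: block 1 (libraries 58 to 61), block 2 (62 to 65), block 3 (66 to 68) and block 4 (72). In block 1 the 3 sham libraries held 550.1, 430.5 and 552.1 CPM of Zc3h13 and the pMCAO library held 214.6 CPM. In block 2 the sham values were 197.7 and 290.1 CPM and the pMCAO values 68.5 and 144.2 CPM. In block 3 the sham library held 161.8 CPM and the pMCAO libraries 73.9 and 71.3 CPM, and the lone sham library of block 4 held 113.9 CPM. The sham mean was thus 2.38, 2.29 and 2.23 times the pMCAO mean in blocks 1, 2 and 3, or log2 differences of -1.24, -1.27 and -1.16. Over all 12 libraries the groups overlapped, since the pMCAO library of block 1 lay above sham replicates 4, 6 and 7.

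**Figure D1:**
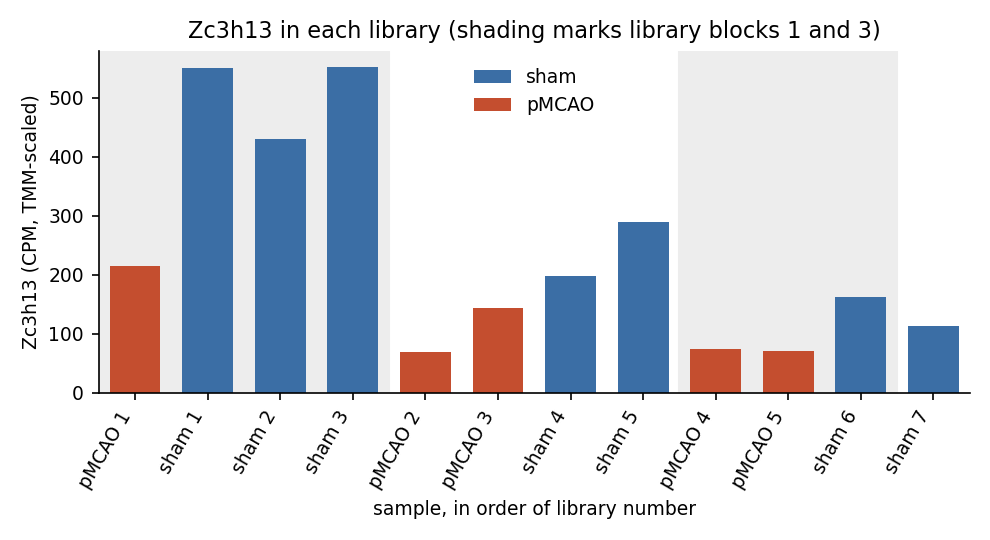
Zc3h13 level (CPM with TMM scaling, linear axis from 0) in each of the 12 libraries in order of library number, with shading on blocks 1 and 3. Within blocks 1, 2 and 3 every pMCAO bar (68.5 to 214.6 CPM) is below every sham bar of the same block, and both groups are lower in the later blocks.

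Sham mice averaged 328 CPM ± 183 (SD, n = 7) and pMCAO mice averaged 115 CPM ± 64.3 (SD, n = 5), on counts of 924 to 6907 per library. The log2 fold change of pMCAO over sham was -1.48 (SE 0.41) in a limma-voom fit on the group alone and -1.24 (SE 0.19) in the fit that adds the library block. A gene was called where its adjusted p was no more than 0.05 and its log2 fold change was 1 or more in either direction. By this rule Zc3h13 was called in the fit with blocks and not in the fit without. That call is what chose the gene and is no added support. The fit without blocks called 0 genes (0% of those tested, with 1219, or 8.43%, at an unadjusted p under 0.05), by edgeR also 0 and by DESeq2 68. The fit with blocks called 47 (0.325%), of which 27 were lower (0.187%). Leaving out any single library kept the estimate with blocks between -1.41 and -1.07, but the call was lost without sham replicate 6 and without pMCAO replicate 1, each the only library of its group in its block. It was also lost without block 1, where the estimate was -1.22.

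With TMM scaling, the level of Zc3h13 moved with the library block as much as with surgery. The sham libraries of block 1 averaged 511 CPM ± 69.7 (SD, n = 3) and the later sham libraries 191 CPM ± 74.5 (SD, n = 4), a log2 difference of 1.49, with no overlap between them. This contrast rests in part on the TMM factors, since a lower factor raises the scaled level. They were 0.559 to 0.792 in block 1 and 0.993 to 1.52 in the other libraries. Taken over library totals these sets overlapped, with 2076 of 7538258 counts in sham replicate 2 and 5016 of 17419630 in sham replicate 5. Block 1 also held the libraries with the fewest genes detected, 13386 to 14712 against 15343 to 15766 in the others, and shares of mitochondrial ribosomal RNA of 34.8% to 54.5% against 14.6% to 35.2%. The part of these library properties in the level of Zc3h13, or in its difference between groups, was not tested. Of the 9 immune markers, 0 were called, and with blocks 2 had an unadjusted p under 0.05, both with estimates above 0. These were the T cell genes Cd8a, at 1.43 on the log2 scale (SE 0.43, adjusted p = 0.167), and Cd3g, at 1.601 (SE 0.59, adjusted p = 0.264), while Ptprc, which all leukocytes carry, was at -0.34 (SE 0.31, adjusted p = 0.692). The other T cell gene of the list, Cd3e, was at 0.36 (SE 0.38, adjusted p = 0.746), and Cd3g fell to 0 counts in both groups. The neural marker Ret was at -0.69 (SE 0.23, adjusted p = 0.213). The part of such cells in the level of Zc3h13 was not tested. The SD of its log2 CPM over the 12 libraries was 1.10, more than that of 96.8% of the 1584 genes with a mean log2 CPM of at least 6.

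Of the other members of the writer complex, none met the rule for a call in either fit. Over the 9 members besides Zc3h13, limma-voom, edgeR and DESeq2 each called 0, with and without blocks. At an unadjusted p under 0.05 there were 0 of the 9 by limma-voom and by edgeR in both fits, and by DESeq2 there was 1 without blocks and 0 with them. Estimates below are log2 fold changes of pMCAO over sham from limma-voom, with p-values adjusted over all 14462 genes.

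Mettl3 had the lowest estimate of the 9. Its sham level ran from 2.70 to 12.4 CPM with a median of 7.06, and the pMCAO libraries held 4.36, 4.96, 4.84, 3.20 and 1.89 CPM. The pMCAO values all lay below the sham median, yet 2 sham libraries, replicates 2 and 4, lay among them. The estimate was -0.72 (SE 0.36, adjusted p = 0.607) without blocks and -0.64 (SE 0.37, adjusted p = 0.4997) with them, and the 95% interval with blocks, -1.43 to 0.15, leaves room for a fall as large as that of Zc3h13. Within blocks 1, 2 and 3 the log2 difference was -0.61, -0.09 and -1.01. Its depth was thin, with 13 counts in sham replicate 2 (95% Poisson interval 6.92 to 22.2, counting error only). An exon of Tox4 overlaps it on the opposite strand, over 31.6% of its longest transcript, and whether the counting used strand is not stated.

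Mettl14 went the other way in its estimate. Sham mice held 3.53 to 11.1 CPM with a median of 9.41, and the pMCAO libraries held 6.49, 13.6, 12.5, 9.60 and 11.7 CPM. The lowest value of each group came from block 1, and the groups overlapped. The estimate was 0.27 (SE 0.26, adjusted p = 0.788) without and 0.19 (SE 0.24, adjusted p = 0.779) with blocks, with an interval of -0.31 to 0.70 in the latter.

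Wtap overlapped between the groups. Its sham range was 13.99 to 30.2 CPM with a median of 23.5, and the pMCAO libraries held 31.2, 14.4, 17.7, 17.8 and 19.2 CPM. With TMM scaling the highest of all 12 values was in pMCAO replicate 1, of block 1. The estimate was -0.22 (SE 0.23, adjusted p = 0.812) without and -0.15 (SE 0.24, adjusted p = 0.840) with blocks, with an interval of -0.65 to 0.36 in the latter. The sign changed between blocks, at 0.76, -0.71 and 0.10. Near-identical copies, Gm14292 and Gm7381, share 14.3% of its longest transcript, so its counts are less certain.

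Rbm15 ranged from 22.3 to 51.8 CPM in sham mice with a median of 32.0, and from 18.2 to 29.7 CPM in pMCAO mice. With TMM scaling it was, like Zc3h13, high in the sham libraries of block 1, at 36.7 to 51.8 CPM. The later sham libraries held 22.3 to 32.0 CPM. Taken over library totals these sets overlapped, with 167 of 7418730 counts in sham replicate 3 and 929 of 26724213 in sham replicate 6. The estimate was -0.31 (SE 0.23, adjusted p = 0.714) without and -0.23 (SE 0.20, adjusted p = 0.667) with blocks. Cbll1, which encodes the E3 ubiquitin ligase HAKAI, was scattered, from 1.69 to 10.1 CPM in sham and 2.48 to 12.8 CPM in pMCAO mice, on as few as 7 counts in sham replicate 3 (95% Poisson interval 2.81 to 14.4), and Gm29542 overlaps 14.6% of its longest transcript on the opposite strand. The estimate was -0.28 (SE 0.39, adjusted p = 0.859) without and -0.45 (SE 0.35, adjusted p = 0.638) with blocks.

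The demethylases and readers showed no call either. Alkbh5 averaged 25.5 CPM ± 7.65 (SD, n = 7) in the sham group and 27.1 CPM ± 3.00 (SD, n = 5) after pMCAO, with an estimate of 0.03 (SE 0.21, adjusted p = 0.978) without and -0.16 (SE 0.19, adjusted p = 0.768) with blocks. Fto was the least certain member, and exons of 4831440D22Rik and Gm45427 overlap it on the opposite strand. Its pMCAO libraries held 1.03, 6.45, 15.7, 12.5 and 5.13 CPM against 4.30 to 11.5 CPM in sham mice, and the interval with blocks ran from -0.76 to 0.90 around 0.07 (SE 0.39, adjusted p = 0.963), while the estimate without blocks was 0.01 (SE 0.48, adjusted p = 0.996). Ythdf2 had a positive estimate in every block, 0.79, 0.26 and 0.03, and over all libraries averaged 18.1 CPM ± 3.80 (SD, n = 7) in the sham group and 22.7 CPM ± 5.21 (SD, n = 5) after pMCAO, with an estimate of 0.29 (SE 0.20, adjusted p = 0.690) without and 0.29 (SE 0.21, adjusted p = 0.603) with blocks. Copies named Gm6823 and Gm8401 match 44.4% of its longest transcript.

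With TMM scaling, Ythdc1 was the steadiest of the 10, within a 1.64-fold range over the 12 libraries. It measured 54.2 to 76.1 CPM in sham mice with a median of 58.5, and 57.6, 46.4, 55.3, 47.0 and 54.8 CPM in pMCAO mice. The groups overlapped between 54.2 and 57.6 CPM, and on this scale the highest value of each came from block 1. Taken over library totals, sham replicate 6 (2284 of 26724213 counts) lay above sham replicate 1 of block 1 (956 of 15852161). The estimate was -0.23 (SE 0.16, adjusted p = 0.690) without and -0.18 (SE 0.14, adjusted p = 0.637) with blocks, and the interval with blocks, -0.48 to 0.12, does not reach the fall of Zc3h13. Gm43055 overlaps Ythdc1 on the same strand, over 9.58% of its longest transcript.

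**Figure D2:**
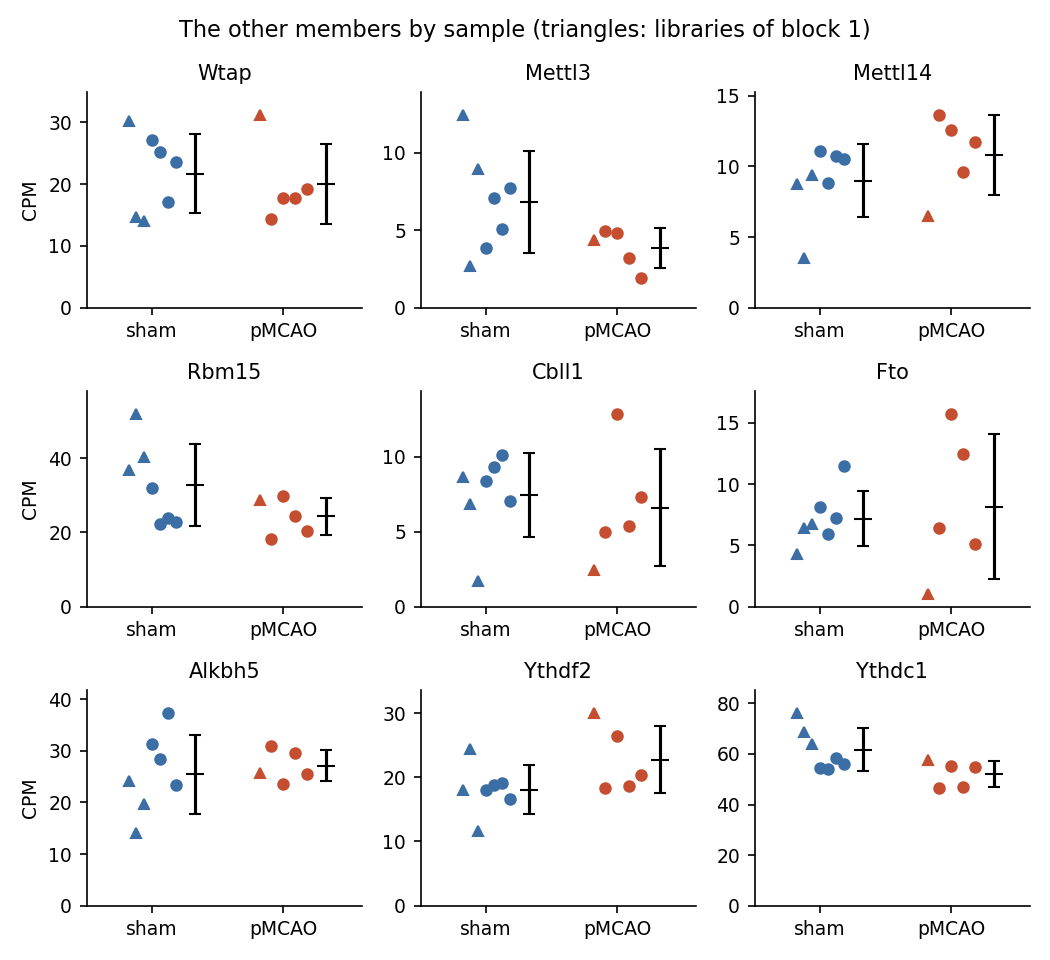
Level of the 9 other members (CPM with TMM scaling, linear axes from 0) in 7 sham and 5 pMCAO libraries, with triangles for the libraries of block 1 and black bars for the mean ± SD of each group. The groups overlap in all 9 panels, and relative to their means Fto (CV 72.1%) and Cbll1 (CV 58.96%) spread most of the 9 in pMCAO mice.

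Read as counts, 0 of the 10 members had groups that did not overlap over the 12 libraries, where 0.505% of all genes tested did. Zc3h13 alone had every pMCAO library below every sham library in each of blocks 1, 2 and 3, which 2.41% of all genes also had, and 5.52% had in either direction. Zc3h13 was chosen for its difference between these groups, and the block limits were worked out from the authors' deposited fold changes. Its separation within blocks is therefore a description and no added support. The estimate was below 0 for 7 of 10 members with blocks and 6 without, with medians of -0.17 and -0.23 where the medians over all genes were 0.01 and 0.06. The choice of scale matters for the small estimates, and for the levels of block 1 as given above. Scaled to the table's total, as in the deposited CPM, the median difference of all genes was 0.34 on log2(CPM + 0.5), and on that scale Zc3h13 was at -1.13, Mettl3 at -0.39 and Rbm15 at -0.07, whereas Wtap at 0.21, Cbll1 at 0.09 and Ythdc1 at 0.09 took the opposite sign. Fto, at 0.15 there, was at -0.17 on the same measure with TMM scaling and near 0 in both fits.

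**Figure D3:**
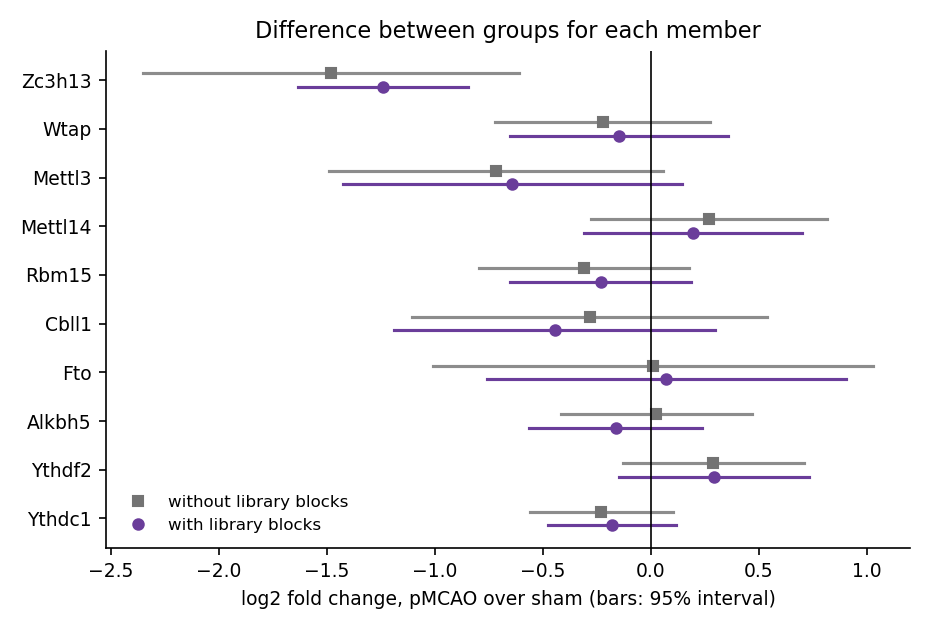
Log2 fold change of pMCAO over sham for each member, with 95% intervals, from limma-voom without library blocks (squares) and with them (circles). Only the intervals of Zc3h13, the gene chosen for this difference, lie wholly below 0, and those of the other 9 cross 0 in both fits.

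Per kilobase of exon, Zc3h13 was the most abundant member by a wide margin. It averaged 52.2 CPM per kb ± 29.2 (SD, n = 7) in the sham group and 18.2 CPM per kb ± 10.2 (SD, n = 5) after pMCAO. By the merged exon lengths used here, its lowest library, at 10.9 CPM per kb, was above every library of every other member. In sham mice Ythdc1 (4.52), Rbm15 (4.42), Alkbh5 (4.26), Ythdf2 (3.95) and Wtap (3.47 CPM per kb) followed, and each differed from its neighbour in this order by less than their SDs. Cbll1 (1.86), Mettl3 (1.34) and Mettl14 (1.21 CPM per kb) formed a lower group that also could not be ordered beyond their spread, and Fto was at 0.55 CPM per kb. This order depends on the length used. The merged exons of Ythdc1, Fto and Mettl3 came to 13651, 13031 and 5076 bases, against longest transcripts of 6313, 4707 and 2159. For Zc3h13 the lengths were 6283 and 6151 bases. By longest transcript the top Ythdc1 library would lie above the lowest Zc3h13 library, and the sham mean of Fto above that of Mettl14.

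The makeup of the writer complex by transcript shifted with Zc3h13. Over Zc3h13, Wtap, Virma, Mettl3, Mettl14, Rbm15 and Cbll1, summed per kb, Zc3h13 made up 70.7% ± 10.9 (SD, n = 7) of the sum in sham mice and 51.4% ± 9.02 (SD, n = 5) after pMCAO. The other 6 subunits summed to 17.8 CPM per kb ± 2.76 in sham and 15.5 CPM per kb ± 2.47 in pMCAO mice, a difference within 1 SD. The share is independent of library scaling, since all subunits of a library are scaled alike. Its size depends on the exon lengths used. In block 1 it was 79.3%, 79.2% and 83.7% in sham and 64.6% in pMCAO mice. In block 2 it was 61.7% and 72.6% against 46.0% and 57.2%, and in block 3 it was 63.5% against 44.0% and 45.5%. The sham library of block 4, at 54.7%, lay below the pMCAO libraries with 64.6% and 57.2%. As the share rests on the same Zc3h13 counts, it carries no test.

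**Figure D4:**
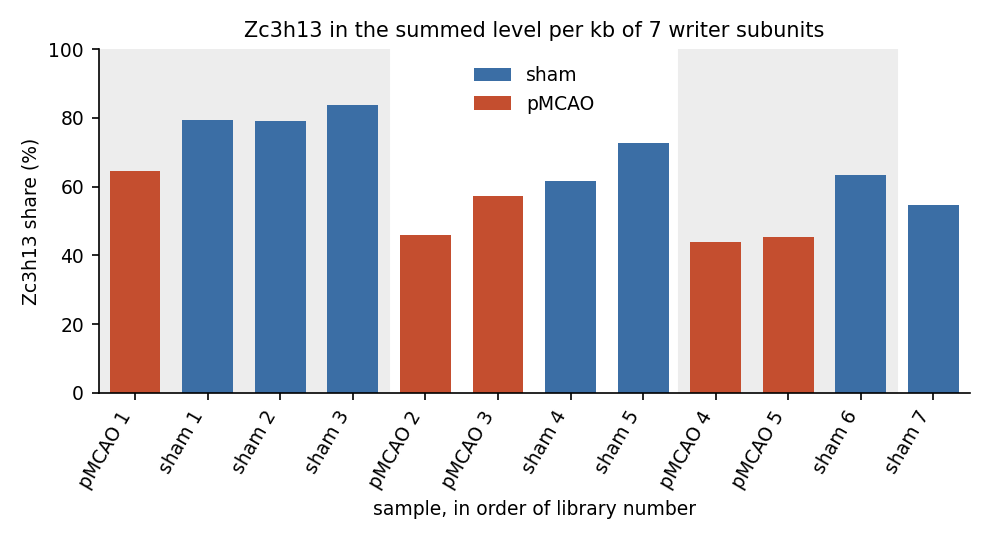
Share of Zc3h13 in the summed level per kb of 7 writer subunits (percent, axis from 0 to 100) in each library in order of library number, with shading on blocks 1 and 3. Within blocks 1, 2 and 3 the pMCAO bars (44.0% to 64.6%) are below the sham bars of the same block.

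The rest of the m6A pathway was examined through lists of related genes, and in 5 lists with 56 genes tested, 0 were called by limma-voom, edgeR or DESeq2 with or without blocks. Among 8 other writers and writer proteins, 0 had an unadjusted p under 0.05 in either limma-voom fit, and the median log2 fold change with blocks was 0.02. Virma, the scaffold of the complex, was at -0.07 (SE 0.18, adjusted p = 0.910). The smallest p-values with blocks belonged to Zcchc4, which methylates ribosomal RNA, at 0.17 (SE 0.31, adjusted p = 0.868), and Trmt112, a cofactor of several methyltransferases, at 0.28 (SE 0.63, adjusted p = 0.899). Of the 11 other readers tested, with Igf2bp1 not analysed here, 0 had an unadjusted p under 0.05 with blocks and the median was -0.10. Without blocks there was 1, Rbmx, named after its values were seen, at 0.46 (SE 0.21, adjusted p = 0.583). Ythdf1, the cytoplasmic reader tied to translation, was at 0.49 (SE 0.26, adjusted p = 0.4497), and Igf2bp3 at -1.12 (SE 0.60, adjusted p = 0.461) on levels of at most 3.21 CPM.

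The genes of methyl donor supply had the highest median of these lists, 0.23 with blocks. METTL3 takes its methyl group from S-adenosylmethionine, and AHCY clears the S-adenosylhomocysteine that is left. Of 8 genes tested, with Mat1a not analysed here, 3 had an unadjusted p under 0.05 in both limma-voom fits, all with estimates above 0, where 12.7% of all genes had such a p with blocks. Ahcy measured 1.21 to 7.53 CPM in sham mice with a median of 4.05, and 6.58, 6.73, 10.7, 10.002 and 11.3 CPM in pMCAO mice, an estimate of 1.25 (SE 0.33, adjusted p = 0.121) with blocks. With TMM scaling a single sham library, replicate 4 at 7.53 CPM, reached into the pMCAO range. Taken over library totals, sham replicate 7 (67 of 11292916 counts) also lay above pMCAO replicate 1 (77 of 15489159). The lowest sham value rests on 5 counts, in replicate 3 (95% Poisson interval 1.62 to 11.7). Ahcyl2, an AHCY-like protein, held 103 to 145 CPM in sham mice with a median of 114, and 152, 170, 150, 206 and 175 CPM in pMCAO mice. With TMM scaling its groups did not overlap, as for 0.505% of all genes. Taken over library totals they overlapped, with 5678 of 26724213 counts in sham replicate 6 and 1782 of 15489159 in pMCAO replicate 1. The estimate for Ahcyl2 was 0.46 (SE 0.13, adjusted p = 0.130) with blocks. The third was Ahcyl1, named after its values were seen, at 0.35 (SE 0.16, adjusted p = 0.369). All 3 missed the threshold once adjusted over all genes.

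The CCR4-NOT subunits, the deadenylase that YTHDF2 recruits, had 0 of 11 with an unadjusted p under 0.05 and a median of 0.00 with blocks. Cnot7, a catalytic subunit, was at 0.38 (SE 0.22, adjusted p = 0.507) and Cnot4 at -0.20 (SE 0.16, adjusted p = 0.646). Of the 18 other genes named Zc3h, which share the CCCH type of zinc finger or the name alone, 3 had an unadjusted p under 0.05 with blocks, 1 higher and 2 lower, and 0 without blocks. Zc3hav1l was at -1.497 (SE 0.50, adjusted p = 0.211) and Zc3h7a at -0.36 (SE 0.14, adjusted p = 0.275), and Zc3h7b, named after its values were seen, was at 1.23 (SE 0.48, adjusted p = 0.286). Zc3hav1l held 1.43 to 18.5 CPM in sham and 0.453 to 2.65 CPM in pMCAO mice. Zc3h7b was near the floor, at 0 to 2.95 CPM in sham and 0 to 6.22 CPM in pMCAO mice. The estimates of the family with blocks were above 0 for 7 and below 0 for 11.

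**Figure D5:**
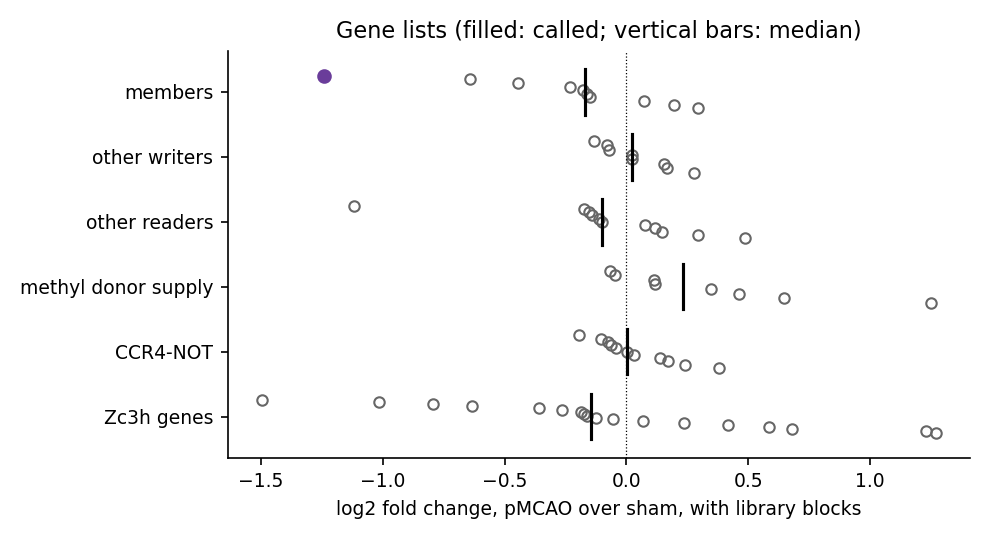
Log2 fold change of pMCAO over sham with library blocks for the 10 members and for the genes tested in 5 further lists, with a vertical bar at each median. The single filled point is Zc3h13 at -1.24, and no gene of the 5 further lists was called.

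Of 6463 genes with a mean log2 CPM of at least 3, the 5 whose log2 CPM followed Zc3h13 most closely over the 12 libraries were Ell, a factor of transcription elongation, with a Pearson r of 0.98, Apol7a with 0.98, and Igsf23, Tollip and Eps8 with 0.97 each. A total of 151 genes had an r of at least 0.9. The libraries share their blocks and groups, and after both were taken out the r of these 5 was 0.85, 0.89, 0.76, 0.86 and 0.78. Eps8, an actin-capping protein of the microvilli, held 309 to 942 CPM in sham and 250 to 715 CPM in pMCAO mice. Since the 5 were picked for following Zc3h13, their own log2 fold changes with blocks, -0.71, -0.67, -0.81, -0.65 and -0.62, are a description, and all were nearer to 0 than that of Zc3h13. When ranked by r after group and block were taken out, the first 5 were instead Sos2, Mfn2, Rragd, Ncor1 and 4933431E20Rik, with r from 0.91 to 0.94.

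Among the members, Zc3h13 followed Ythdc1 (r = 0.85) and Rbm15 (r = 0.81) over the 12 libraries, and with group and block taken out the r was 0.45 and 0.20. Rbm15 and Ythdc1 had an r of 0.77, and 0.24 with group and block taken out. Mettl14 and Alkbh5 had 0.71, and 0.52 with group and block taken out. The lowest values over the 12 libraries were those of Rbm15 with Alkbh5, at -0.74 and -0.64 with group and block taken out, and of Mettl14 with Rbm15, at -0.70 and -0.35. With group and block taken out the highest were those of Cbll1 with Ythdc1 (0.84) and Mettl3 with Mettl14 (0.73), pairs at -0.02 and 0.16 before. These are descriptions of TMM-scaled levels over 12 libraries that share blocks and depth, and block 1 had the lowest TMM factors.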

How the data were processed

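Processed data were 1 table for the 12 libraries (7 sham, 5 pMCAO). Per the study's methods and labels, the authors removed ribosomal RNA by cleavage, built libraries from a very small RNA input, aligned paired-end reads to GRCm38 with STAR, counted genes with featureCounts (use of strand not given in the sources used here) and tested with limma-voom, correcting for the day of collection. The deposited counts were whole numbers per gene without normalisation. The CPM that the authors deposited beside them equalled the count over the library's total for 190260 of 190260 values within 0.001. Further columns held the authors' fold change, average expression, p-value and false discovery rate and were not used.

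Counts were filtered with filterByExpr (minimum count 10; 14462 genes kept, 1393 removed), scaled with TMM factors and fitted with limma-voom without and with the library block, in R 4.3.3 with limma 3.58.1 and edgeR 4.0.16. Benjamini-Hochberg adjustment was over all genes tested, and log2 CPM used a prior count of 2. Levels are CPM with TMM scaling, and CPM per kb used merged exon lengths of GENCODE M21. The labels do not give the day of collection. The limits of the blocks came from an earlier analysis of these data, which had worked them out from the authors' deposited fold changes, and whether they are days is not known. Block 4 is 1 sham library and adds nothing to the difference in the fit with blocks. Each library is labelled as a biological replicate, and all pairs within a group differed by more than counting error (the smallest chi-square over its degrees of freedom was 20.1). A count of 3 equals 0.0940 to 0.404 CPM by library, and intervals on counts cover counting error only.

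The members and lists were chosen with earlier results of these data known. Named beside the members were the genes of each list called in either fit, otherwise the 2 with the smallest unadjusted p with blocks, and the 5 genes with the highest r with Zc3h13. Virma and Cnot9 were matched by the older symbols 1110037F02Rik and Rqcd1. Copies of a transcript were sought at 95% identity over at least 100 bases. As alternatives, the quasi-likelihood test of edgeR, the test of DESeq2 1.42.0, DESeq2 size factors, no filter, sample quality weights, removal of mitochondrial ribosomal RNA genes, a replicate block, each library left out in turn, block 1 left out, and the deposited CPM were used.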

Additional observations from a re-analysis of the deposited data

Results flagged for a closer look

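In 2 of the 20 sets of values (each member in each group), 1 library stood apart from the others of its group by Dixon's gap over range, where chance gives about 1. Mettl14 in sham replicate 2 was at a log2 CPM of 1.86, against 3.31 ± 0.15 (SD, n = 6) in the other sham libraries, with a gap of 0.791 of the range. Cbll1 in sham replicate 3 was at 0.84, against 3.07 ± 0.22 (SD, n = 6), with a gap of 0.778 of the range. These values rest on 17 and 7 counts, in the libraries with the smallest totals of block 1.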

How the results depend on the processing

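Without library blocks, 0 genes were called by limma-voom, by edgeR, with DESeq2 size factors, with no filter, without the mitochondrial ribosomal RNA genes and without block 1, but 68 by DESeq2 and 18 with sample quality weights. With blocks, the 47 genes called became 21 by edgeR, 115 by DESeq2, 29 with quality weights and 0 without block 1 (1421 at an unadjusted p under 0.05). With each library left out in turn the count without blocks ran from 0 to 17 (17 without pMCAO replicate 3, 8 without pMCAO replicate 1, 5 without sham replicate 7), and with blocks from 4 (without sham replicate 6; 6 without pMCAO replicate 1) to 86 (without pMCAO replicate 3). The members called were 0 without blocks, 1 by DESeq2, and 0 to 0 with a library left out. With blocks they were 1, 0 without block 1, and 0 to 1 with a library left out. The member gained or lost was Zc3h13 each time, whose estimate stayed between -1.88 and -1.07 without blocks and between -1.41 and -1.07 with them. The cause of these changes was not tested.

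The replicate numbers of the titles did not pair the libraries, since the deviations of same-numbered sham and pMCAO libraries correlated at 0.40, -0.24, -0.16, 0.16 and 0.08. With the replicate block, 243 genes and 1 member were called. With the replicate block and library blocks together, 28 genes and 0 members were called, and Wtap (0.0472), Mettl14 (-0.43), Fto (-2.02) and Alkbh5 (0.0919) changed sign. Fto with blocks was -0.11 by edgeR and -0.14 by DESeq2, and Alkbh5 without blocks was -0.15 without block 1. With a library left out, Fto ran from -0.45 to 0.35 without and from -0.28 to 0.32 with blocks, Alkbh5 from -0.0555 to 0.16 and from -0.28 to 0.0162, and Wtap with blocks from -0.34 to 0.0178. On the deposited CPM, the differences in mean log2(CPM + 0.5), which are not the fitted estimates, changed sign for Wtap (-0.11 with TMM scaling, 0.21), Cbll1 (-0.20, 0.0895), Fto (-0.17, 0.15) and Ythdc1 (-0.23, 0.0892). Depth limits Mettl3, Mettl14, Cbll1 and Fto, which fell to between 7 and 17 counts in 1 library each.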
